A study of Homo sapiens with 6 samples.

Results

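The mitochondrial ribosomal protein genes are the nuclear genes whose array symbols begin with MRPL or MRPS and a number, with pseudogene and antisense symbols left out. There were 73 of them among the 14884 genes with a named probe. They were chosen by name, and each was read from its brightest probe. ARPE-19 is a long-used human cell line derived from retinal pigment epithelium, the layer that supports the photoreceptors. The cells had been held at confluence in 1% serum for 4 weeks so that it would differentiate. All cultures were then kept without serum for 2 days, 3 with vehicle (untreated) and 3 with 250 µM FAC, an iron treatment by the series title; the abbreviation usually stands for ferric ammonium citrate. Each culture was measured on 1 array, in log2 intensity units, and the labels call the cultures biological replicates.

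Mitochondria build the few membrane proteins that their own genome encodes on a separate ribosome, the mitoribosome. Its RNA comes from mitochondrial DNA, while its proteins are made in the cytosol from nuclear genes and imported. Some of these proteins descend from bacterial ribosomal proteins, and others were added during the evolution of mitochondria. The proteins that it makes are core subunits of the respiratory chain and the ATP synthase, enzymes that the retinal pigment epithelium, an oxidative tissue, depends on.

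Of the 73 genes, 1 rose with FAC and none fell. The gene that rose was MRPL33, whose protein is the counterpart of bacterial ribosomal protein L33 in the large subunit (0.41 ± 0.06 on the log2 scale, SE, 1.33-fold, adjusted p = 0.0107 by limma, n = 3 per group). The other 72 genes lay between -0.14 and 0.20. The 73 genes as a group had a median log2 fold change of 0.0089, with 38 above zero and 35 below, and all 14884 genes had a median of -0.0041. Of the 73, 50 lay among the 4962 brightest genes, whose median was -0.0293, with 1892 above zero and 3070 below. The share above zero was larger in the set than among the brightest genes, and this difference was not tested. Of all genes tested, 3.73% passed the test in either direction (1.88% higher and 1.85% lower), against 1.37% of the 73. A change of RNA per cell and a change in the share of cells that hold the RNA cannot be told apart in such bulk samples.

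The text below orders the genes by subunit. By the structure of the mammalian mitoribosome, 50 of the 73 encode proteins of the large subunit, 29 of bacterial type and 21 specific to mitochondria. The other 23 encode proteins of the small subunit, 13 of bacterial type and 10 specific to mitochondria. MRPS18A and MRPS30 are counted with the large subunit, where their proteins sit in spite of their names. MRPL12, MRPS6, MRPS18C, MRPS24 and MRPS36 had no named probe and were not analysed here.

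The start regions of these genes are shown first, because nuclear genes for mitochondrial proteins are known for a few shared promoter motifs, those of NRF1, of the ETS factor GABP and of YY1. RefSeq promoter windows (GRCh38.p14, 250 bases before to 50 after a gene's start) matched 65 of the 73 genes, and the first window listed for each gene was read on both strands. The ETS letters CCGGAAG stood in 43.1% of the 65 windows, against 10.7% of the 27305 genes in the table and 15% of the 10749 with a tested probe. The YY1 letters AAGATGGC stood in 29.2%, against 3.03% and 4.1%. The NRF1 letters GCATGCGC stood in 7.69%, against 3.27% and 4.55%, and the shorter NRF1 letters TGCGCA, which overlaps them, in 16.9%, against 8.42% and 11.1%. At least 1 of the ETS, YY1 and NRF1 motifs was found in 40 of the 65 windows (61.5%, and 15.6% over the whole table). The E-box CACGTG, to which MYC binds, stood in 7.69%, against 7.43% and 9.02%, and the TATA letters TATAAA in 3.08%, against 12% and 8.49%.

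The 120 bases before the start are printed for MRPL33, the gene that rose, for MRPS10 and MRPL27, which are among the next highest, and for MRPS34 and MRPL17, which are among the lowest. Each of the 5 has 1 window in the table. They lie at chr2:27771599-27771718, plus strand (MRPL33), chr6:42217862-42217981, minus strand (MRPS10), chr17:50373185-50373304, minus strand (MRPL27), chr16:1773135-1773254, minus strand (MRPS34) and chr11:6683341-6683460, minus strand (MRPL17). Capitals mark ETS letters on either strand in the first 4 and both kinds of NRF1 letters in the last.
MRPL33: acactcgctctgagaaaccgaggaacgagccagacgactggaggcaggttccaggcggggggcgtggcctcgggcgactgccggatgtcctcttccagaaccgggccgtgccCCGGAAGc
MRPS10: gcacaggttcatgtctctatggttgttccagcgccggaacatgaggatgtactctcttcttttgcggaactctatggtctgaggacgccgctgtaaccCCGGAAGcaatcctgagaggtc
MRPL27: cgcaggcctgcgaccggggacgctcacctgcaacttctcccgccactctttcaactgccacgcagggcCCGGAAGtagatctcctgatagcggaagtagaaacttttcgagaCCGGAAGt
MRPS34: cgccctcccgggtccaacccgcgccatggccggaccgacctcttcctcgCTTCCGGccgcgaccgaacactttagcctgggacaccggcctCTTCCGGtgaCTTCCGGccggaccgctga
MRPL17: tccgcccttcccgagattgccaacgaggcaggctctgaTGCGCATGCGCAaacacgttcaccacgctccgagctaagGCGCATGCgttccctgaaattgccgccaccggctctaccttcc

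The ETS letters of MRPL33 run from base -8 to base -2, counted back from the start. Those of MRPL27 stand at the same bases and again from -52 to -46, and those of MRPS10 from -22 to -16. MRPS34 carries the reverse letters CTTCCGG 3 times, the nearest from -19 to -13. MRPL17 holds no ETS match and has overlapping NRF1 letters on both strands between -81 and -72 and once more from -43 to -36. The ETS motif thus stands upstream of the highest gene and of one of the lowest. The 28 genes with an ETS match had a median log2 fold change of -0.0012 and those without one 0.0148. For YY1 the medians were 0.0277 with a match (19 genes) and 0.0126 without. For the NRF1 letters GCATGCGC they were -0.0483 with a match (5 genes, MRPL17 among them) and 0.0145 without. The shorter NRF1 letters TGCGCA went the other way, at 0.0295 with a match (11 genes) and 0.0126 without. For the E-box the medians were 0.0277 with a match (5 genes) and 0.0126 without. These differences were not tested. A match is a run of letters and not a measured binding site.

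**Figure D1:**
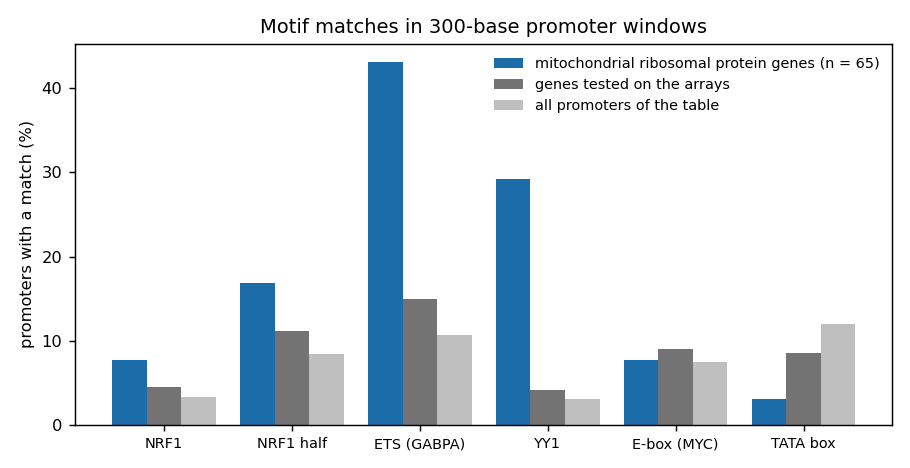
Share of promoter windows (percent, vertical axis) with each motif on either strand, for 65 mitochondrial ribosomal protein genes (blue), genes tested on the arrays (dark grey) and all genes of the table (light grey). ETS letters stand in 43.1% of the 65 windows and YY1 letters in 29.2%, against 10.7% and 3.03% over the table.

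MRPL33 measured 8.39, 8.35 and 8.28 in untreated replicates 1, 2 and 3, and 8.76, 8.78 and 8.70 in the FAC replicates. The groups did not overlap, and the lowest FAC value lay 0.30 above the highest untreated one. The mean went from 8.34 ± 0.06 (SD, n = 3) to 8.75 ± 0.05 (SD, n = 3), and the 95% interval of the change ran from 0.28 to 0.54. Among the 280 genes that rose, MRPL33 ranked 155 by size. MRPL33 missed the threshold in 3 alternatives. Leaving out untreated replicate 3 gave 0.38 at an adjusted p of 0.0514, leaving out FAC replicate 1 gave 0.40 at 0.059, and adjusting over all probes gave 0.0567 for the same change. In the RefSeq gene table MRPL33 overlaps no other gene.

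**Figure D2:**
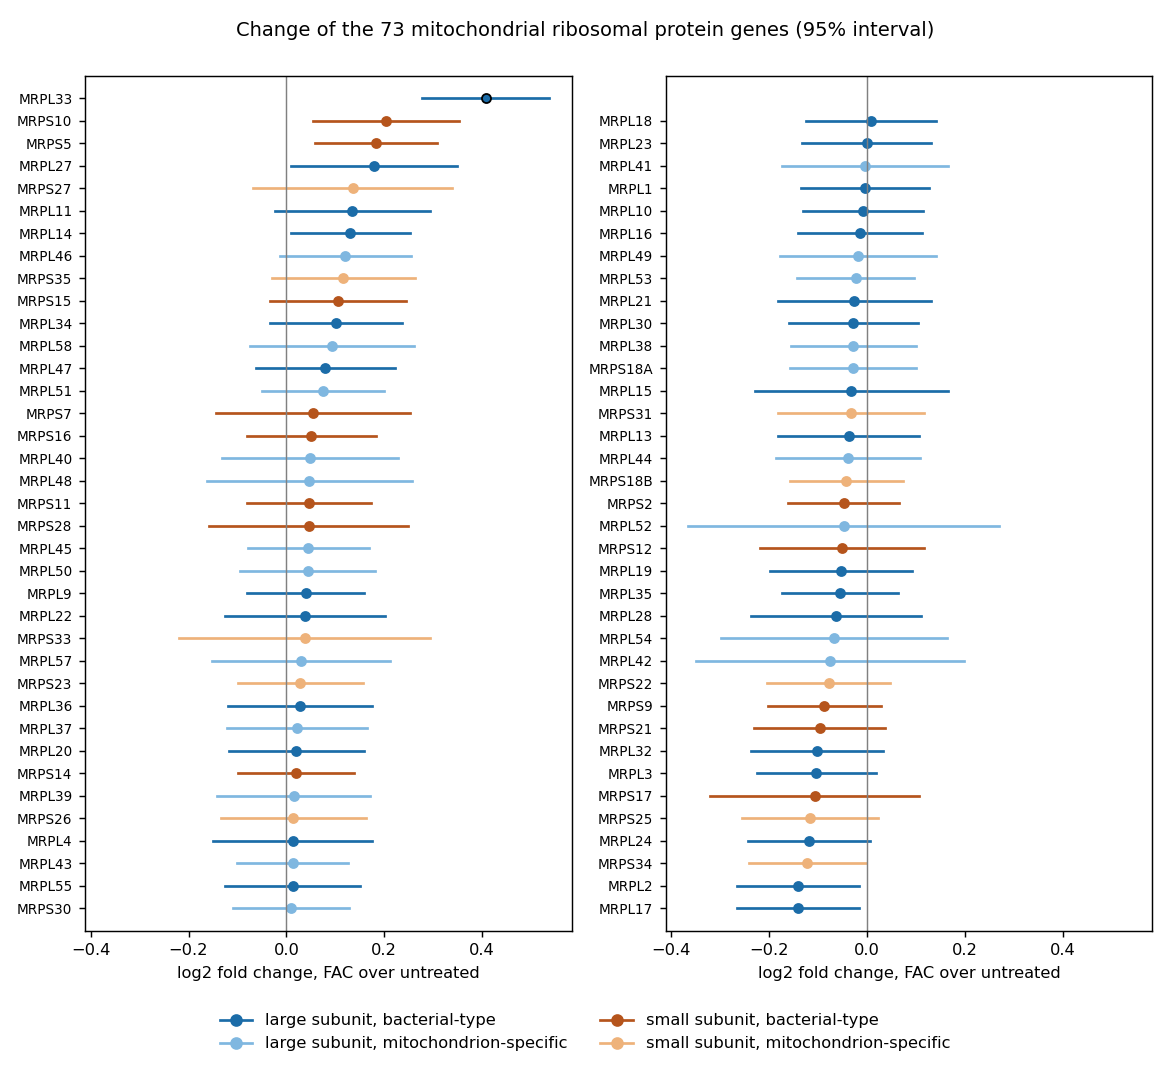
Log2 fold change of FAC over untreated (horizontal axis) for each of the 73 genes, sorted from the highest at the top left to the lowest at the bottom right, with limma's 95% interval as a line and colour for subunit and protein type. MRPL33, ringed in black, is the 1 gene past the threshold, and the other 72 lie between -0.14 and 0.20.

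Among the other large subunit proteins of bacterial type, MRPL27, MRPL11 and MRPL14 had the next highest changes. MRPL27, the counterpart of L27 near the site of peptide bond formation, measured 7.35, 7.43 and 7.38 untreated and 7.59, 7.42 and 7.68 with FAC. FAC replicate 2 lay among the untreated values, and the change was 0.18 ± 0.07 (SE, adjusted p = 0.264). MRPL14, the counterpart of L14 at the interface with the small subunit, measured 8.93, 8.97 and 8.87 untreated and 9.07, 9.05 and 9.04 with FAC. Its groups did not overlap, at a change of 0.13 ± 0.05 (SE, adjusted p = 0.257), and it overlaps TMEM63B, which measured 0.18 ± 0.06 (SE, adjusted p = 0.183). MRPL11, part of the region that receives the translation factors, had a change of 0.13 ± 0.07 (SE, adjusted p = 0.376), with untreated replicate 1 at 9.85 inside the narrow FAC range of 9.84 to 9.86.

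The 2 lowest genes of the set, MRPL17 and MRPL2, belonged to the same class. MRPL17, the counterpart of L17, measured 9.42, 9.42 and 9.51 untreated and 9.33, 9.31 and 9.28 with FAC (-0.14 ± 0.05, SE, adjusted p = 0.228). MRPL2, the counterpart of L2 close to the catalytic centre, measured 8.76, 8.69 and 8.67 untreated and 8.61, 8.55 and 8.53 with FAC (-0.14 ± 0.05, SE, adjusted p = 0.233). In both genes the 3 FAC values lay below the 3 untreated ones, by a margin too small to pass the adjusted test. MRPL2 overlaps KLC4 (-0.17 ± 0.09, SE, adjusted p = 0.379). MRPL24 (-0.12 ± 0.05, SE), MRPL3 (-0.10 ± 0.05, SE) and MRPL32 (-0.10 ± 0.06, SE), whose protein is cut by an inner membrane protease before it is assembled, had adjusted p of 0.314, 0.369 and 0.427. MRPL10, the base of the flexible stalk that carries MRPL12, measured 7.90 ± 0.04 and 7.89 ± 0.04 (SD, n = 3), a change of -0.0087 ± 0.05 (SE), and quantile normalization turned its sign.

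**Figure D3:**
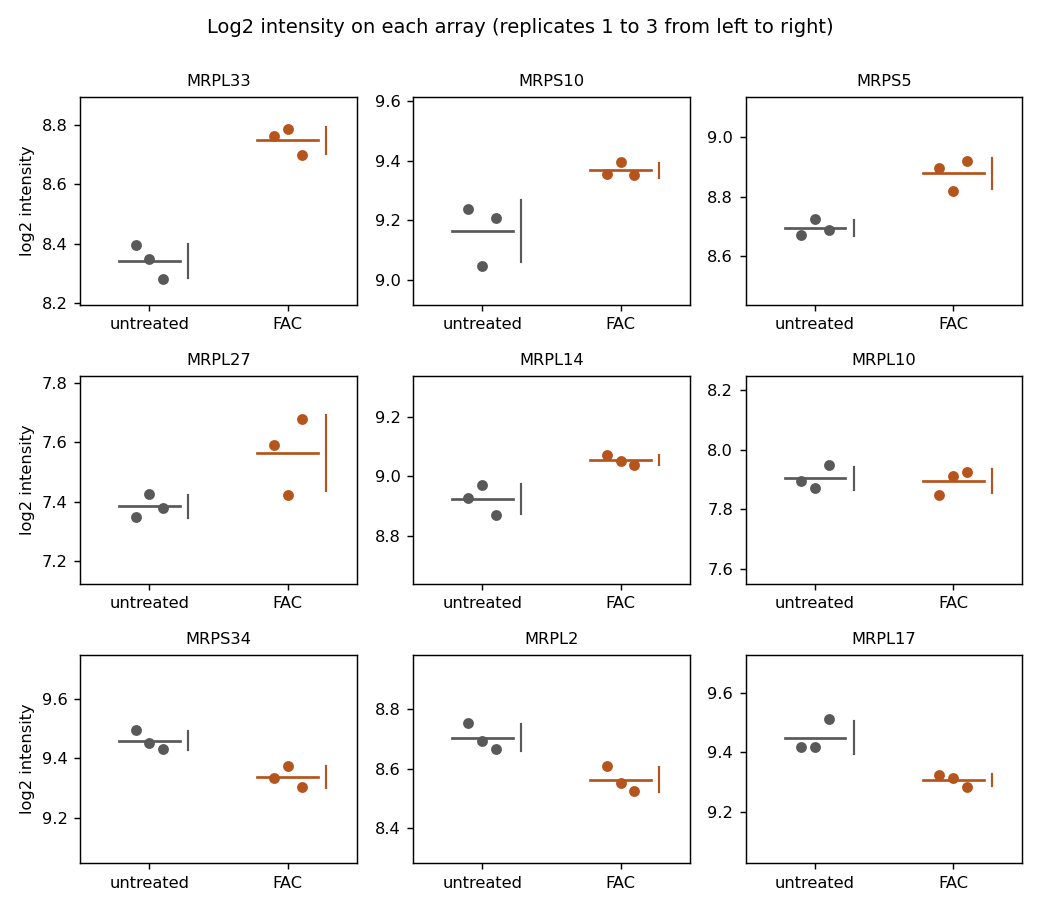
Log2 intensity (vertical axis, the same span in each panel) of 9 genes on each array, untreated in grey and FAC in orange, with replicates 1 to 3 from left to right; horizontal lines are means and vertical bars are 1 SD. MRPL33 has the widest gap between groups (0.30), and MRPL10 has groups that overlap.

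The log2 fold changes of the 21 large subunit proteins specific to mitochondria ran from -0.08 to 0.12. None of them passed, and none reached an unadjusted p under 0.05. MRPL46 was highest (0.12 ± 0.06, SE, adjusted p = 0.345), with 8.78, 8.66 and 8.75 untreated and 8.81, 8.91 and 8.83 with FAC, groups that did not overlap. MRPL45, which anchors the ribosome at the inner membrane, stood at 11.59 ± 0.05 and 11.64 ± 0.04 (SD, n = 3), a change of 0.04. MRPL58, a peptidyl-tRNA hydrolase built into the large subunit, had a change of 0.09 ± 0.07 (SE, adjusted p = 0.584), and MRPL44, which has the fold of ribonuclease III, -0.04 ± 0.06 (SE, adjusted p = 0.811). MRPS18A (-0.03 ± 0.06, SE) and MRPS30 (0.0089 ± 0.05, SE) overlapped between groups, and the sign of each turned in some alternatives. MRPL52 had the widest error of the 73 (SE 0.14), because untreated replicate 1 read 7.19 and the other untreated arrays 7.71 and 7.73.

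Among the 13 small subunit proteins of bacterial type, MRPS10 and MRPS5 were highest. MRPS10, the counterpart of S10 in the head of the subunit, measured 9.24, 9.05 and 9.21 untreated and 9.35, 9.39 and 9.35 with FAC. MRPS5, the counterpart of S5, measured 8.67, 8.72 and 8.69 untreated and 8.90, 8.82 and 8.92 with FAC. The groups of both genes did not overlap. Their changes were 0.20 ± 0.06 (SE, adjusted p = 0.155) and 0.18 ± 0.05 (SE, adjusted p = 0.123). With a variance prior that follows intensity both passed (adjusted p = 0.0493 and 0.0478), which takes the count of genes that rose from 1 to 3. MRPS12, a protein of the decoding centre, measured 7.21 ± 0.09 and 7.16 ± 0.10 (SD, n = 3), and its change of -0.05 ± 0.07 (SE) became 0.0006 without FAC replicate 3. MRPS9 (-0.09 ± 0.05, SE) and MRPS21 (-0.10 ± 0.06, SE) had FAC values that all lay below the untreated ones, with adjusted p of 0.427 and 0.45. MRPS17 (-0.11 ± 0.09, SE, adjusted p = 0.624) was spread out in the untreated cells, from 8.29 to 8.67. Its change was -0.21 without untreated replicate 2 and -0.02 without untreated replicate 3, and it passed in neither.

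Of the 10 small subunit proteins specific to mitochondria, none passed. MRPS27 was highest (0.14 ± 0.09, SE, adjusted p = 0.492), with untreated replicate 1 at 7.68 far under the other 5 values, which ran from 7.97 to 8.06; without that array the change was 0.03. MRPS35 came next (0.12 ± 0.06, SE, adjusted p = 0.406). MRPS34 was lowest, with 9.49, 9.45 and 9.43 untreated and 9.33, 9.37 and 9.30 with FAC (-0.12 ± 0.05, SE, adjusted p = 0.279), and MRPS25 followed (-0.12 ± 0.06, SE, adjusted p = 0.382). In MRPS34 and MRPS25 the groups did not overlap. MRPS34 shares its locus with EME2, which measured 0.20 ± 0.08 (SE, adjusted p = 0.257). MRPS18B, one of the S18 relatives and part of the small subunit, had a change of -0.04 ± 0.05 (SE). Its 7 probe entries held identical means and errors, so they are read as 1 measurement and not as repeats.

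The medians by class were -0.0048 for the large subunit of bacterial type, 0.01 for the large subunit specific to mitochondria, 0.05 for the small subunit of bacterial type and -0.0092 for the small subunit specific to mitochondria. By subunit they were 0.0029 (50 genes) and 0.02 (23 genes). Some of the class medians changed sign with the processing, as given in the closing section. The median over all 14884 genes was -0.0041, and that over the 4962 brightest genes was -0.0293.

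At an unadjusted p under 0.05, 8 of the 73 genes were found, 5 higher (MRPL33, MRPS10, MRPS5, MRPL27 and MRPL14) and 3 lower (MRPL17, MRPL2 and MRPS34). That is 11% of the set, against 17.2% of all genes (8.14% higher and 9.06% lower). The groups did not overlap in 17 of the 73, or 23.3%, where 23.4% of all genes had such groups. In 6 of the 17 FAC was higher (8.22% of the set, and 10.4% of all genes) and in 11 it was lower (15.1% of the set, and 13% of all genes). The share of separated genes was therefore near that of all genes in each direction. Of the 73, however, 50 lay among the 4962 brightest genes. Groups did not overlap in 1825 of those 4962, with FAC higher in 626 and lower in 1199. Against the brightest genes the share in the set was smaller in both directions, and this difference was not tested.

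The changes of the set were small in size. A log2 change of 0.2 or more, 1.15-fold, was found in 2 of the 73 genes (2.7%), MRPL33 and MRPS10, against 12.7% of all genes tested. A change of 0.25 or more was found in 1, MRPL33, against 7.98%, and one of 0.1 or more in 19 (26%), against 38.4%. The median size, without sign, was 0.05 in the set and 0.08 over all genes. It was 0.07 in the brightest 33.3% of genes, which held 68.5% of the 73. The 95% interval lay within 0.4 on either side of zero, or 1.32-fold, in 72 of the 73 genes (98.6%), against 86% of all genes. Over the 73 the lowest bound was -0.37, for MRPL52, and apart from MRPL33 the highest was 0.35, for MRPS10. These are intervals of single genes, not adjusted for their number, so changes smaller than the bounds are not excluded.

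**Figure D4:**
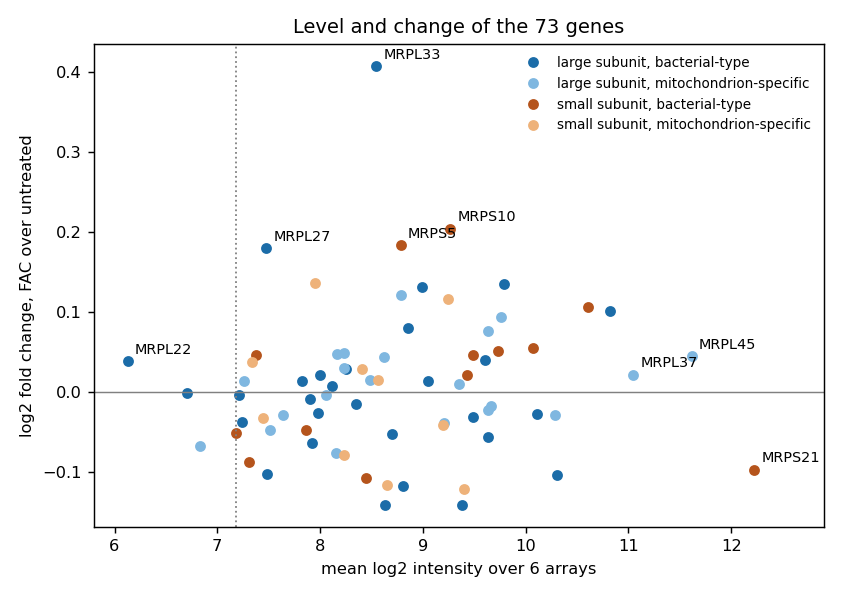
Mean log2 intensity over the 6 arrays (horizontal axis) and log2 fold change of FAC over untreated (vertical axis) for the 73 genes, coloured by subunit and type; the dotted line is the median level of all genes tested (7.18). All but 3 of the 73 lie above that level, and MRPL33, at an intermediate level, stands apart from the rest.

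Most probes of these genes were bright. Mean levels ran from 6.13 for MRPL22 to 12.22 for MRPS21, with a median of 8.63, at percentile 75.7 of the genes tested, and 1 of the 73, MRPL22, lay among the dimmest 33.3%. The median SE of a change was 0.06, against 0.07 over all genes. Array by array, the mean deviation of the 73 genes from their own means was -0.0037, -0.017 and 0.0054 in untreated replicates 1, 2 and 3 and 0.016, -0.0025 and 0.0011 in the FAC replicates. No array stood apart over the set by more than 0.017. Second probe entries existed for 4 of the 73 genes, though those of MRPS18B held identical values. The second probe of MRPS2, a counterpart of S2, was dimmer and, in a fit of all probes, gave 0.26 ± 0.08 (SE, unadjusted p = 0.0158 by limma) where the brighter one gave -0.05 ± 0.06 (SE), so the direction of MRPS2 depends on the probe. The second probe of MRPS16 gave 0.14 and the brighter one 0.05. The probes of MRPL44 gave -0.04 and -0.02.

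Other genes of mitochondrial gene expression were read from the same comparison. Of 4 measured genes, for mitoribosome proteins with other names and for OXA1L, which was listed with them, none passed. CHCHD1, a protein of the small subunit, had the smallest p (-0.16 ± 0.07, SE, adjusted p = 0.277). DAP3, another small subunit protein, had a change of 0.0084 ± 0.05 (SE), and OXA1L, which inserts the new proteins into the inner membrane, 0.02 ± 0.05 (SE). Of 14 mitochondrial translation factors none passed. MRRF, which recycles ribosomes, was lowest (-0.19 ± 0.08, SE, adjusted p = 0.289), and MTRFR, a rescue factor of stalled ribosomes, highest (0.14 ± 0.07, SE, adjusted p = 0.338). Of 23 genes of mitoribosome assembly and rRNA modification none passed and 18 lay below zero. Of the 4962 genes in the brightest 33.3% of the arrays' genes, which held 60.9% of the 23, 3070 lay below zero. Among the 9923 genes outside the dimmest 33.3% the count was 5459. The share below zero was larger in the 23, and this difference was not tested. The median of the 23, -0.04, was -0.0165 with quantile normalization, -0.0145 without untreated replicate 3 and -0.0166 without FAC replicate 3. It was -0.0322 with array weights, -0.0409 with the replicate block and -0.0561 with median centring. The smallest p-values were those of MALSU1, an assembly factor that binds MRPL14 (-0.15 ± 0.08, SE, adjusted p = 0.383), and MRM2 (-0.10 ± 0.06, SE, adjusted p = 0.471).

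Of 22 listed genes for the charging of mitochondrial tRNAs only 4 were measured, so this list was mostly not read. None of the 4 passed, with GARS1 at -0.11 ± 0.05 (SE, adjusted p = 0.334) and QRSL1 at -0.08 ± 0.06 (SE, adjusted p = 0.521). Of 19 listed genes of mitochondrial DNA maintenance and transcription 10 were measured. None of the 10 passed, with MTERF1 at -0.12 ± 0.08 (SE, adjusted p = 0.532) and the helicase gene TWNK at -0.12 ± 0.09 (SE, adjusted p = 0.542). In these lists at an unadjusted p under 0.05 there were 1 mitoribosome protein, CHCHD1, and 1 translation factor, MRRF. The medians of the 5 lists, in the order given, were 0.01, -0.04, -0.04, -0.08 and -0.03. In the cytosolic ribosome none of 46 measured protein genes passed, and none reached an unadjusted p under 0.05 at its brightest probe. Dimmer second probes of RPL39 and RPL19 did, and are given under other observations. Of the 46 genes, out of 79 listed, 32 lay below zero and 14 above. The 4962 brightest genes held 69.6% of the 46, and 3070 of the 4962 lay below zero. These shares were not compared by a test. RPS15A (-0.19 ± 0.09, SE, adjusted p = 0.345) and RPS29 (-0.11 ± 0.05, SE, adjusted p = 0.345) had the smallest p-values, and the median was -0.02.

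**Figure D5:**
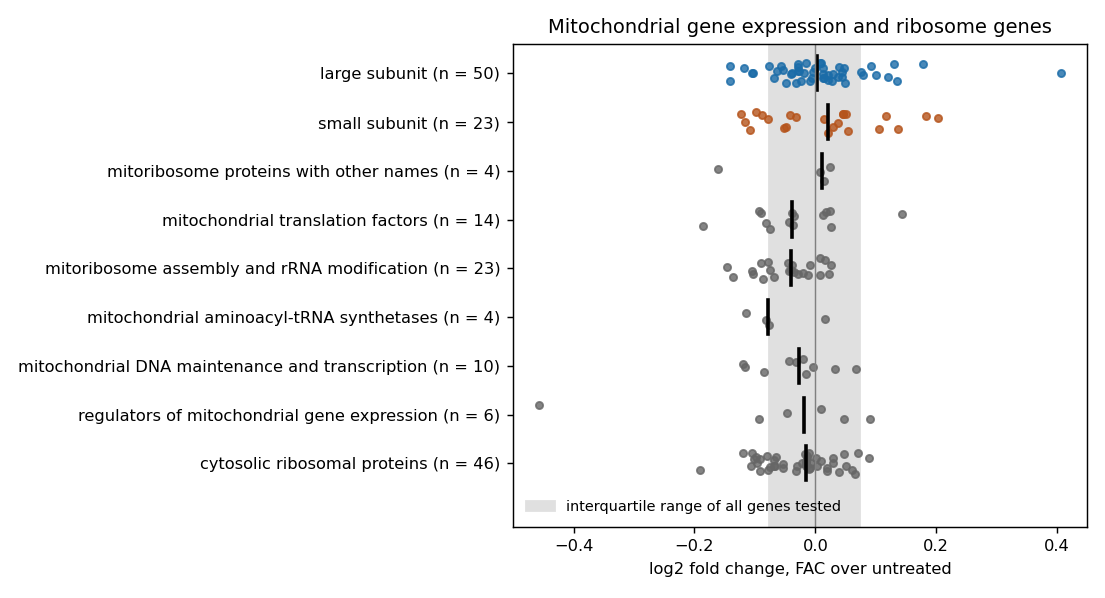
Log2 fold change of FAC over untreated (horizontal axis) of single genes (points) in the 2 subunits of the mitoribosome, 6 lists of mitochondrial gene expression and the cytosolic ribosome, with the median of each as a black bar and the quartiles of all genes tested as a grey band. The band shows the spread of single genes and is no yardstick for a median. The medians of the subunits are 0.0029 and 0.02, and the lone low point at -0.46 is MYC.

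Among 6 measured regulators of these genes, MYC fell, a transcription factor that drives growth and ribosome production. It measured 9.64, 9.48 and 9.73 untreated and 9.19, 9.22 and 9.07 with FAC (-0.46 ± 0.08, SE, adjusted p = 0.0221), and the groups did not overlap. MYC passed in 7 of the 14 alternatives of the closing section. It did not pass without untreated replicate 1 (adjusted p = 0.0708) or 3 (adjusted p = 0.0781). The same held without FAC replicate 1 (adjusted p = 0.0855), 2 (adjusted p = 0.0554) or 3 (adjusted p = 0.0763). Nor did MYC pass when adjusted over all probes (adjusted p = 0.0909) or with a block for replicate number (adjusted p = 0.07). NRF1, the activator whose motif is given above, stood at -0.09 ± 0.06 (SE, adjusted p = 0.507), and YY1 at -0.05 ± 0.06 (SE, adjusted p = 0.764). ESRRA, a nuclear receptor of mitochondrial biogenesis, stood at 0.09 ± 0.06 (SE, adjusted p = 0.475). GABPA, PPARGC1A and TFAM had no named probe and were not analysed here.

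Over the whole table, the array medians lay between 6.03 and 6.09 and pairs of arrays correlated at 0.991 to 0.995. Of 17 measured genes listed for retinal pigment epithelium 1 passed, VEGFA, which fell (-0.49, adjusted p = 0.0107). VEGFA was not among the markers set out in the design for this cell type, and no measured marker of that design passed. By level OTX2 and TYRP1 stood at percentiles 97.7 and 92.2, while RPE65 and BEST1, markers of the mature cell, stood at 22.6 and 26.5. Of 11 measured markers of neurons, glia, photoreceptors, endothelium, blood and fibroblasts 1 passed. Of these 11, 8 lay below the median level of all genes, among them PECAM1 (percentile 14.4) and CRX (21.1). The other 3 were CD68 (percentile 98.5), SYT1 (85.3) and CSF1R (69.4), and CSF1R fell (-0.37 ± 0.07, SE, adjusted p = 0.0365). Their part in the values above was not tested.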

How the data were processed

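Total RNA from 6 ARPE-19 cultures was primed with poly(T) and random oligomers, amplified and end-labelled with biotin (per the labels' protocols), and each culture has 1 array. The deposited table, made by the authors, holds log2 values for 53617 probes. The submitters' processing notes list RMA and Partek (6.6), whose settings and genome build are not given in the sources used here; the log2 scale was read from the values. The table holds no detection calls or scan dates. The number of arrays limits the precision.

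Probes were named from the platform annotation (16098 with 1 symbol, the rest unnamed), and the brightest probe of each of 14884 genes was kept. The values were tested with limma 3.58.1 in R 4.3.3 (lmFit, eBayes, 2-sided, Benjamini-Hochberg over all 14884 genes, threshold 0.05), and the script was checked on simulated data. Genes were named in full if they passed, were among the 8 highest or 8 lowest of the 73, had more than 1 probe or were on a short list of subunits; other lists give up to 4 that passed or else 2 with the smallest p. Further genes, and the 5 printed promoters, were picked with their values in view. The 73 genes and the lists were chosen with earlier results of these data known. Alternatives are given in the closing section. RefSeq tables (GRCh38.p14) gave overlapping genes and promoters.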

Additional observations from a re-analysis of the deposited data

How the results depend on the processing

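The alternatives were leaving out the dimmest 33.3% of genes, quantile normalization, median centring, a variance prior with trend and robust estimation, array weights, the mean of all probes, adjustment over all probes, a block for replicate number, and each array left out in turn. The median of the 73 genes lay between -0.0063 and 0.027 over these 14 settings, and no gene of the set fell in any. The count that rose was 3 with the variance trend, 0 when adjusted over all probes, 0 or 1 without 1 array, and 1 in the others. MRPL33 passed in 11 of the 14, with changes of 0.38 to 0.43 and adjusted p from 0.000871 to 0.059.

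Of all genes, 555 passed, 840 without the dimmest, 1026 with the variance trend, 254 when adjusted over all probes and 147 to 447 without 1 array. The replicate block gave 184, and MRPL33 passed under it (adjusted p = 0.0437), while MYC did not (adjusted p = 0.07), so that 0 regulators fell. That count was also 0 when adjusted over all probes, and 0 to 1 without 1 array; MYC passed in 7 of 14 settings. Same-numbered arrays did not deviate together (correlations of -0.023, -0.026 and -0.15), so the numbers are not treated as pairs. Without 1 array the median of the small subunit of bacterial type lay between 0.012 and 0.061. That of the small subunit specific to mitochondria lay between -0.051 and -0.0081 without 1 array, but was 0.0126 with quantile normalization. The median of the large subunit of bacterial type turned to 0.0131 with quantile normalization. That of the large subunit specific to mitochondria turned to -0.0025 with median centring. Quantile normalization moved the median of the tRNA charging genes to -0.048.

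Signs turned in genes that never passed: MRPL10 to 0.021 with quantile normalization, 0.013 without untreated replicate 3 and 0.014 without FAC replicate 1; MRPS30 (up to 0.0302 without 1 array) to -0.0063 with median centring, -0.003 without untreated replicate 1 and -0.0036 without FAC replicate 2; MRPS18A (down to -0.0597 without 1 array) to 0.0056 without untreated replicate 1; MRPS2 to 0.11 with the mean of its probes; and MRPS12 (down to -0.097 without 1 array) to 0.0006 without FAC replicate 3. The cause of these shifts was not tested. Signs were followed in this way for 25 named genes of the set, so the list of turned signs does not cover the other genes. Without detection calls, signal over background could not be examined.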

Other observations

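The symbols that the naming rule left out include 3 pseudogenes and 2 antisense transcripts of mitochondrial ribosomal protein genes. MRPL45P2, a pseudogene of MRPL45, measured 8.09, 7.91 and 7.71 untreated and 8.28, 8.30 and 8.07 with FAC (0.32 ± 0.10, SE, adjusted p = 0.169 by limma). FAC replicate 3 lay below untreated replicate 1, so the groups overlapped. Its parent MRPL45 had a change of 0.04 ± 0.05 (SE, adjusted p = 0.736), and a transcript of a pseudogene can share probes with its parent, so the MRPL45P2 value is uncertain. MRPL42P5 (-0.18 ± 0.12, SE, adjusted p = 0.508) and MRPS31P5 (-0.05 ± 0.06, SE, adjusted p = 0.688) did not pass. MRPL20-AS1 (-0.03 ± 0.07, SE) and MRPL23-AS1 (-0.05 ± 0.11, SE) did not pass either, beside MRPL20 at 0.02 and MRPL23 at -0.0012.

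Of the measured genes that overlap a mitochondrial ribosomal protein gene, SSBP3 passed the test. It fell (-0.27 ± 0.06, SE, adjusted p = 0.0389) while MRPL37, which it overlaps, measured 0.02 ± 0.06 (SE, adjusted p = 0.9). HDGF, which overlaps MRPL24, measured 0.17 ± 0.05 (SE, adjusted p = 0.152) where MRPL24 measured -0.12, and neither passed. The differences within these pairs were not tested. In all, 29 of the 73 genes overlap another gene in the RefSeq table. A second probe of RPL39, of the cytosolic ribosome, gave -0.44 ± 0.08 (SE, unadjusted p = 0.00079) where the brighter probe gave -0.11 ± 0.08 (SE, unadjusted p = 0.212). The second probe of RPL19 gave -0.26 ± 0.07 (SE, unadjusted p = 0.00688 by limma) where the brighter probe gave -0.01 ± 0.06 (SE). The dimmer probes of RPL41 and RPS18 did not reach an unadjusted p under 0.05.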
